A study of Caenorhabditis elegans with 2 samples.

Results

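Chromatin immunoprecipitation followed by sequencing (ChIP-seq) of ZTF-4, named as a zinc finger transcription factor, was carried out on whole L1 larvae of Caenorhabditis elegans. The peaks described here are the autosomal ZTF-4 peaks whose summit, the position of highest signal in a peak, lay in the promoter windows of 2 or more protein-coding genes. A promoter window covered the 1000 bp before an annotated gene 5′ end and the first 200 bp after it. There were 271 such shared-promoter peaks among 1898 peaks in all, or 14.3%, and among 1539 peaks on the 5 autosomes, or 17.6%. Of the other autosomal peaks, 515 had the summit in the window of 1 gene and 753 in no window. A further 16 peaks on the X chromosome met the same rule, and these are not among the 271.

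All animals belonged to strain OP322, whose genotype the labels give as unc-119(ed3) III with the insertion wgIs322, and they were a pool of males and females of unstated age. The insertion encodes ZTF-4 joined to eGFP, a green fluorescent protein. The sources used here do not give the promoter that drives it, its copy number or the state of the endogenous gene, nor the antibody beyond the entry ztf-4 in its field. The labels give 1 group of 2 biological replicates, with no untagged or mutant animals, and the control named in them was not analysed here. The peaks analysed were those that passed the irreproducible discovery rate (IDR) filter of the authors. Such a filter tests how well regions rank alike in 2 lists. The filtered list was derived from both replicates, and regions of the longer list of each replicate were matched to its peaks. Signals are the values deposited with each region and are compared only within a list. The number of reads behind them is unknown, and the intervals given here are 95% intervals that cover counting error only, over peaks that are not independent samples.

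Neighbouring genes can share the DNA in front of them in different ways. In a divergent pair the genes lie on opposite strands with their 5′ ends towards each other, and the sequence between them holds both promoters. Same-strand neighbours follow one another, and the window of the downstream gene reaches back over the upstream gene. In C. elegans, closely spaced genes on one strand are often transcribed together as an operon and cut apart by trans-splicing, and trans-splicing also removes the true start of many transcripts, so an annotated 5′ end is not always where transcription begins.

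The sequences around the summits of the 6 strongest divergent peaks and the 3 strongest same-strand peaks on chromosomes II to V with no annotated exon in the stretch show the DNA that the results below turn on. Each covers the summit and 75 bases to either side on the plus strand of WBcel235 (the RefSeq copy of ce11), 5′ to 3′. Capitals mark matches, on either strand, to any of 5 6-mers that were picked on the other autosomal peaks and are taken up again below. They are the 5 overlapping stretches of 6 letters in GAGACGCAGA.
rpl-20/Y17G9B.5, divergent, chrIV:4749990-4750140: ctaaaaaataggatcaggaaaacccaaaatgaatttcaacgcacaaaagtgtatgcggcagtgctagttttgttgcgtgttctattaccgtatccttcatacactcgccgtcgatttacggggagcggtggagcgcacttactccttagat
rpl-15/K11H12.8, divergent, chrIV:654851-655001: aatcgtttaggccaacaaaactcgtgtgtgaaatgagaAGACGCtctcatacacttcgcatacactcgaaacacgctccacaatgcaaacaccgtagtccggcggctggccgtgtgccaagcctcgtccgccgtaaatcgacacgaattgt
larp-1/wip-1, divergent, chrIII:5018245-5018395: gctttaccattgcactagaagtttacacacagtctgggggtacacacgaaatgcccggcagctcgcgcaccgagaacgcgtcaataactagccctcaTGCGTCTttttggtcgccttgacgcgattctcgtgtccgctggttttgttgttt
ska-3/rps-12, divergent, chrIII:5679068-5679218: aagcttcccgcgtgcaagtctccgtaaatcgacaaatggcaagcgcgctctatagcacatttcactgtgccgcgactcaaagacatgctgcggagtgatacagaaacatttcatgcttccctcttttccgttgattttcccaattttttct
drr-2/set-16, divergent, chrIII:13643657-13643807: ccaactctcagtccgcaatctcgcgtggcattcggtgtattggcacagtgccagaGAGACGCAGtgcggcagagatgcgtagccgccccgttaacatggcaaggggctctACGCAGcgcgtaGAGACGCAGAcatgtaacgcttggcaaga
mif-4/ipla-6, divergent, chrIV:6336807-6336957: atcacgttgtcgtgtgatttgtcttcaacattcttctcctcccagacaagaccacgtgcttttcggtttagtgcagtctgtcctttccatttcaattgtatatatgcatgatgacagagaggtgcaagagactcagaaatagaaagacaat
F32D8.13/sec-61.G, same strand, chrV:10897278-10897428: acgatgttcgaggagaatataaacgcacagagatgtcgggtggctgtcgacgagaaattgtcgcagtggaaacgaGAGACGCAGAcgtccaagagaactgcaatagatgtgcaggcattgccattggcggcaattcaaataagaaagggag
rps-28/Y41D4B.4, same strand, chrIV:1659167-1659317: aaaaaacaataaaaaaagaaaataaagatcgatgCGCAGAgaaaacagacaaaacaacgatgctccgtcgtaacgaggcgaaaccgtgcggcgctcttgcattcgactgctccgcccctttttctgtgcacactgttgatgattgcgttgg
rpb-11/W01G7.4, same strand, chrII:14059892-14060042: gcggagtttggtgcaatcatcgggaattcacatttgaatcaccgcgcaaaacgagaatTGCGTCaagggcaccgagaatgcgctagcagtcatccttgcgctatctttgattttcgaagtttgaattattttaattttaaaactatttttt
Of the 6 divergent sequences, 3 (those of rpl-20/Y17G9B.5, ska-3/rps-12 and mif-4/ipla-6) held no match in the stretch printed. The drr-2/set-16 sequence held the most, with 10 matches, most of them overlapping, and its GC content was 58.9%. In the F32D8.13/sec-61.G sequence, 5 overlapping matches formed a single run that began at the summit. The GC content of the 9 sequences was lowest in rpb-11/W01G7.4, at 39.7%.

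Split by the strands of the windows, shared-promoter peaks were spread much as shared sequence was. Of the 271, 232 (85.6%, 95% interval 80.9% to 89.6%) were at divergent pairs, 23 (8.49%, 5.46% to 12.5%) were at same-strand neighbours, and 16 (5.90%, 3.41% to 9.41%) held 3 genes on both strands. Of the 2.21 Mb of autosomal sequence in 2 or more windows, 85.2% was in 1 window on each strand, 10.5% same-strand and 4.25% in 3 or more windows on both strands. Each was within the interval of the share of peaks. The first share of sequence also takes in opposite-strand pairs that are not divergent, a kind that held 0 peaks. The windows of 255 peaks named 2 genes and those of 16 named 3, and no summit lay in 4 or more windows. Together the peaks named 556 genes, of which 2 lay at more than 1 peak: ecps-1 and atx-2, a divergent pair with 838 bp between its 5′ ends, held 2 peaks. One of these, at chrIII:10461162-10461511, had its summit 52 bp upstream of atx-2 with a signal of 85.7, and the other, at chrIII:10460577-10460926, had its summit 201 bp upstream of ecps-1 with a signal of 72.5.

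Shared sequence held more summits than its length alone would give. Shared-promoter peaks made up 34.5% (31.2% to 37.9%) of the 786 autosomal promoter peaks, while 12% of the autosomal promoter sequence lay in 2 or more windows. This came to 122.7 summits per Mb of shared sequence (108.5 to 138.2, over 2.21 Mb) and 31.8 summits per Mb of sequence in 1 window (29.1 to 34.7, over 16.2 Mb), a ratio of 3.86 (3.32 to 4.48). Shared sequence lay nearer to 5′ ends: 0.74 of its 2.21 Mb was less than 100 bp from one, against 2.66 of the 16.2 Mb in 1 window. The median distance of a summit to the nearest 5′ end was 149 bp for shared-promoter peaks and 262 bp for single-promoter peaks. With single-window density taken at matching distance, in bins of 100 bp, the ratio was 3.17. A base in 2 windows can be reached from 2 genes, and when the single-window densities at both distances were added, shared sequence would have held 151.4 summits. The 271 observed were 1.79 times that sum (1.58 to 2.02). Among bases outside every protein-coding gene, the 247 summits were 1.88 times the sum (1.65 to 2.13). These 2 comparisons by added densities were chosen after the values were seen. Their intervals leave out the counting error of the single-window densities.

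**Figure D1:**
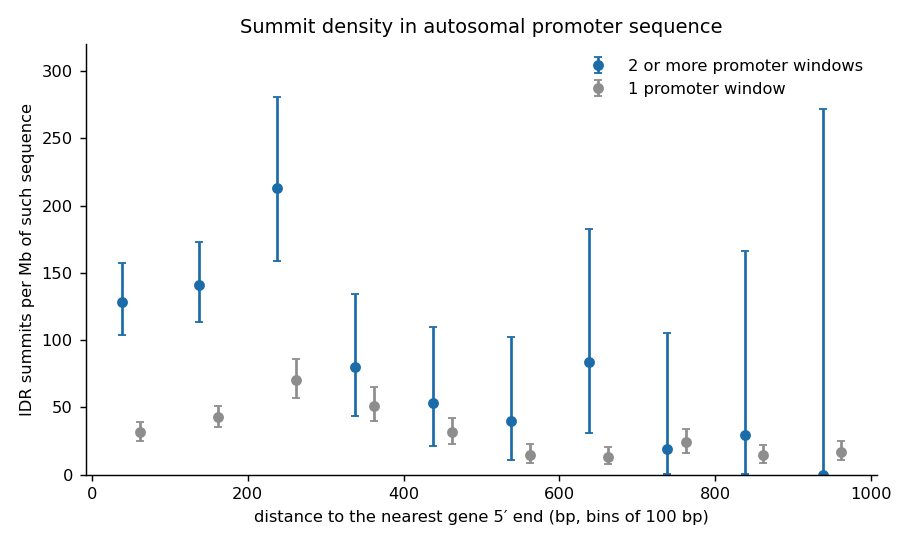
ZTF-4 summits per Mb of autosomal promoter sequence against the distance to the nearest gene 5′ end, in bins of 100 bp, for sequence in 2 or more promoter windows (blue) and in 1 window (grey). Points are densities and bars are exact Poisson 95% intervals. The shared sequence sits above the single-window sequence without overlap of the intervals in the 3 bins nearest to the 5′ end, at 128.4, 141.1 and 213.4 summits per Mb against 31.6, 42.6 and 70.5.

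Within 400 bp of the genes, the ratio was highest closest to them. In the first 100 bp, 95 shared-promoter summits gave 4.06 times the density of single-window sequence (3.00 to 5.52). The ratio was 3.31 (2.49 to 4.4) from 100 to 200 bp and 3.03 (2.11 to 4.31) from 200 to 300 bp. Both intervals overlap that of the first 100 bp. These ratios take the nearest 5′ end only and do not add the density from a second gene. From 300 to 400 bp, with 14 shared-promoter summits, it was 1.57 with an interval of 0.813 to 2.81, which includes 1. Only 19 of the shared-promoter peaks had every 5′ end more than 400 bp away, so the ratios beyond that distance rest on few summits, as from 600 to 700 bp, where 6 summits gave a ratio of 6.38 (2.07 to 16.8). By strand, shared sequence held 123.3 summits per Mb where 1 window on each strand met (107.9 to 140.2) and 98.8 in same-strand stretches (62.6 to 148.2). It held 170.4 where 3 or more windows met on both strands (97.4 to 276.8), and these intervals overlap.

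Counted over gene pairs, a ZTF-4 summit was present in both windows of 263 of the 2833 autosomal divergent pairs with overlapping windows, or 9.28%. The same held for 39 of 845 same-strand pairs, or 4.62%. The pairs differ in spacing, so the shares were also taken by the distance between the 5′ ends. At up to 500 bp they were 14.7% of 892 divergent pairs (12.4% to 17.2%) and 12% of 133 same-strand pairs (7.04% to 18.8%), with intervals that overlap. Above 500 and up to 1000 bp they were 12.1% of 821 divergent pairs (9.91% to 14.5%) and 5.35% of 430 same-strand pairs (3.42% to 7.92%), with intervals that do not. Above 1000 and up to 2000 bp, 33 of 1120 divergent pairs (2.95%) and 0 of 282 same-strand pairs held one. A count of 0 of 282 allows a share of up to 1.06%, taken as 3 counts of the total. Windows of same-strand genes more than 1000 bp apart overlap by less than 200 bp, inside the 5′ part of the first gene, so little sequence was open to a shared summit there. Above 500 and up to 1000 bp, same-strand windows likewise overlap over less sequence than divergent windows. At up to 500 bp the median spacing was 284 bp for divergent and 97 bp for same-strand pairs. At these spacings same-strand windows overlap over more sequence than divergent windows. The shares by spacing are thus not over equal lengths, and shares per length at matching spacing were not computed.

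Counted over genes, 556 of the 17242 autosomal protein-coding genes, or 3.22%, lay at a shared-promoter peak, and 1052, or 6.1%, had any peak in the window. Thus 52.9% of the autosomal genes with a promoter peak had it together with a neighbour, and only 5 genes had a shared-promoter peak and a further peak of their own.

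Shared-promoter peaks were slightly stronger than single-promoter peaks. Their signal in the IDR list ranged from 49.9 to 670 with a median of 82.0, against a median of 74.9 for single-promoter peaks and 67.6 for peaks in no window, a difference of medians of 0.13 on the log2 scale between shared and single. In the matched regions of each replicate the same difference was 0.06 in replicate 1 and 0.14 in replicate 2. For the divergent peaks alone it was 0.12 in the IDR list, 0.01 in replicate 1 and 0.13 in replicate 2 over the same matched regions. When the peaks were taken instead from the strongest 1898 regions of each replicate, the difference of shared minus single was 0.12 in replicate 1 and 0.14 in replicate 2. At matching distance of the summit to the nearest 5′ end the difference of shared minus single was 0.18 within 200 bp, 0.11 from 200 to 400 bp and 0.33 beyond, the last over 19 shared-promoter peaks. The upper end held more of the contrast: 29 of the 271 shared-promoter peaks (10.7%) and 25 of the 515 single-promoter peaks (4.85%) were among the 100 strongest peaks of all. The 2 strongest peaks of the whole list were not shared.

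**Figure D2:**
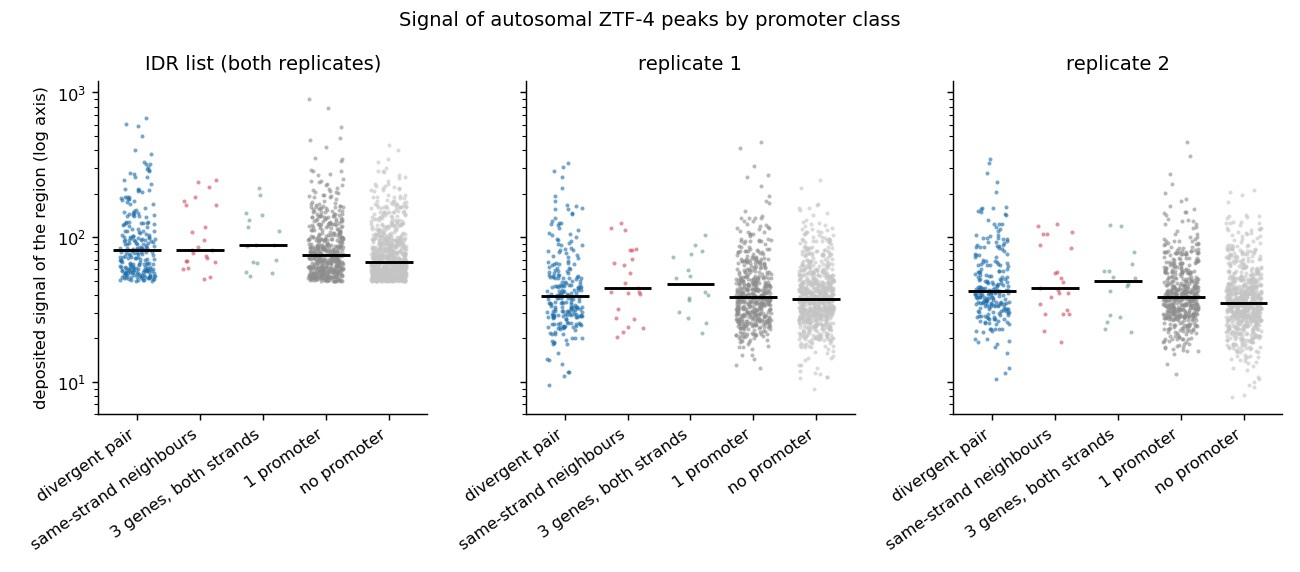
Deposited signal (log axis) of autosomal ZTF-4 peaks in the IDR list and of the matched regions in the list of each replicate, by promoter class, with 1 point per peak and a black line at the median. Medians in the IDR list were 81.4 for divergent pairs, 82.2 for same-strand neighbours, 88.3 for 3 genes on both strands, 74.9 for 1 promoter and 67.6 for no promoter, and the classes overlap over nearly their whole range.

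Nearly every shared-promoter peak was found in each replicate. A region with its summit within 100 bp was listed in both replicates for 263 of the 271 (97.0%, 94.3% to 98.7%), against 95.3% (93.1% to 97.0%) of the single-promoter peaks. These lists are long, with 27643 regions in replicate 1 and 27140 in replicate 2, so the stricter count is of peaks among the strongest 1898 regions of both, which held for 187 (69.0%, 63.1% to 74.5%) of the shared-promoter and 65.8% (61.5% to 69.9%) of the single-promoter peaks. The peaks had passed the IDR filter in a list derived from both replicates, so these shares describe the list and are no independent check of it. The summits of the replicates lay a median of 18 bp apart. The log2 ratio of the replicate 1 to the replicate 2 signal had a median of -0.11 over shared-promoter peaks, -0.01 over single-promoter peaks and 0.06 over peaks in no window. Over the matched shared-promoter peaks the signals of the replicates had a Spearman rho of 0.672 and a Pearson r of 0.758 on the log2 scale, as a description across peaks of the same pair of libraries.

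**Figure D3:**
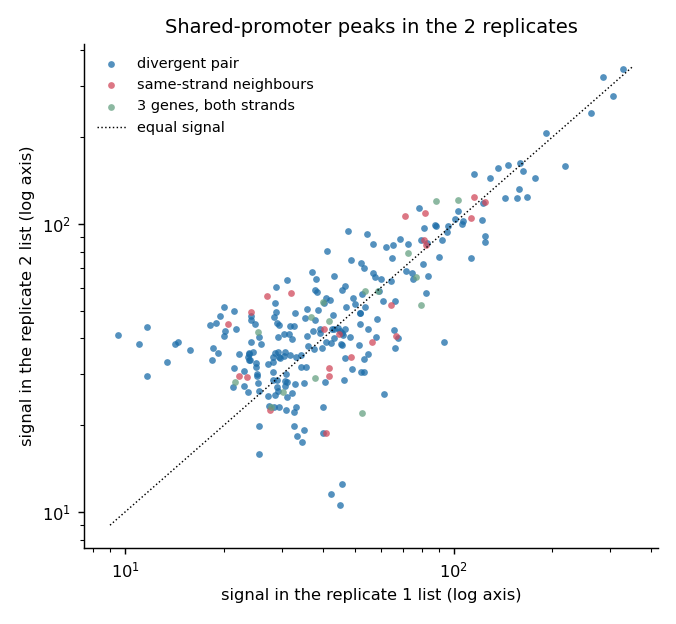
Deposited signal of each shared-promoter peak in the list of replicate 1 (x axis) and replicate 2 (y axis), both on log axes, for the 263 peaks matched in both, with the dotted line at equal signal. The strong peaks lie close to the line, and the widest scatter is among weak peaks such as hel-1/C26D10.4 (9.52 and 41.2) and rpl-1/Y71F9AL.9 (45.2 and 10.5).

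The largest disagreements were at weak divergent peaks. The 5 with the largest ratio between the replicates were hel-1/C26D10.4 (log2 ratio of replicate 1 to replicate 2 of -2.11), rpl-1/Y71F9AL.9 (2.10), F38A5.2/dnj-11 (-1.92), atp-3/F27C1.2 (1.87) and F38B7.17/F38B7.3 (1.87), and their signals in the IDR list were between 52.9 and 60.2. The 8 peaks with no region in one replicate stood at rank 1243 or further down in the IDR list and were all divergent. ZK688.5/fahd-1, F25G6.9/symk-1 and chst-1/C41C4.9 had no match in replicate 1, and larp-5/sld-2, nlp-34/nlp-31, cec-5/nol-10, pde-6/Y95B8A.6 and E04F6.6/pcrg-1 had none in replicate 2.

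Ribosomal protein genes were the most frequent listed genes among the strongest shared-promoter peaks, at 7 of the 20 strongest and 33 of all 271. Chaperone and membrane traffic genes were at 2 of the 20 each, and translation factor, proteasome, chromatin regulator and cell cycle genes at 1 each. The first was at tasp-1, which encodes a relative of the protease taspase, and K01G5.10, at chrIII:10759116-10759388, with signals of 327.6 in replicate 1, 344.4 in replicate 2 and 670 in the IDR list. It ranked 3 in every one of the lists. The next at rpl-20/Y17G9B.5 (285.6 and 323.3 in the replicates, 605.7 in the IDR list) and rpl-15/K11H12.8 (305.1 and 278.4, 583) each held the gene of a protein of the large ribosomal subunit. These are the first sequences printed above. The peak of rps-1, for a protein of the small subunit, and ifet-1, a partner of the cap-binding protein eIF4E, at chrIII:4475554-4475770, had 261.3 and 242.2 in the replicates and 500.9 in the IDR list. The fifth, at nhl-2, which encodes a TRIM-NHL protein of the microRNA pathway, and tag-340, at chrIII:4899831-4900055, had 191.2 and 206.4 in the replicates and 398.8 in the IDR list.

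Below these, iff-2, the gene of the translation factor eIF5A, shared its peak with F54C9.14 at chrII:8561349-8561537, with 218.8 in replicate 1 and 158.4 in replicate 2. The summit lay 65 bp upstream of iff-2 and 870 bp upstream of F54C9.14. At larp-1, for a La-related RNA-binding protein, and wip-1, for a partner of the actin regulator WASP, the signals were 176.6 and 144.2 (chrIII:5018214-5018410). At rpl-12 and lin-54, the DNA-binding subunit of the DREAM complex, they were 163.1 and 152.1 (chrIV:13240573-13240775), with the summit 27 bp from rpl-12 and 366 bp from lin-54. The peak of rps-12 and ska-3, a spindle and kinetochore gene, had 146.8 and 159.8 (chrIII:5679041-5679222). The peak of drr-2, for a relative of eIF4H, and set-16, for a histone H3 lysine 4 methyltransferase, had 167.5 and 123.6 (chrIII:13643635-13643830). In each of these 5 the replicates differed by less than 1.5 times.

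The next group joined genes of protein folding and turnover to each other and to other genes. The chaperone gene hsp-110 and rpn-3, for a subunit of the proteasome lid, shared a peak with 136.4 and 155.8 in the replicates (chrIII:8447065-8447254), and the summit lay 245 bp and 199 bp upstream of them. The peak of the mitochondrial chaperonin gene hsp-60 and Y22D7AL.10 had 155.6 and 122.8 (chrIII:1619043-1619229). That of icd-1, for a subunit of the nascent polypeptide-associated complex, and vps-32.1, for a membrane-remodelling ESCRT protein, had 129.3 and 143.5 (chrII:6588994-6589157). The remaining peaks of the 20 strongest were those of gpap-1/scpr-1, mif-4/ipla-6, R107.5/cls-2, rps-20/ekl-4, rps-19/hsr-9 and the same-strand pairs egl-30/C53H9.4 and F32D8.13/sec-61.G, with signals in the IDR list between 241.3 and 329.2.

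At most of the divergent pairs the summit lay in the space between the genes. It was between the 5′ ends at 218 of the 232 peaks (94.0%, 90.1% to 96.7%), and inside a gene at the other 14. The summits of the single replicates gave 92.6% of 229 in replicate 1 and 94.7% of 227 in replicate 2. The rule itself favours such positions. The windows reach only 200 bp into a gene and, for ends more than 1000 bp apart, meet only between them. The share of the eligible sequence between the ends was not computed. Over all arrangements, 1.32 of the 2.21 Mb of shared sequence lay outside protein-coding genes. The 5′ ends of the divergent pairs at the 232 peaks were a median of 480.5 bp apart (quartiles 309.5 and 757.8 bp). The range was 12 bp at F32D8.14/F32D8.5 to 1771 bp at mdh-1/F46E10.3. The summit was a median of 152.5 bp from the nearer 5′ end and 326.5 bp from the farther one, and both ends were within 500 bp at 169 peaks (72.8%).

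**Figure D4:**
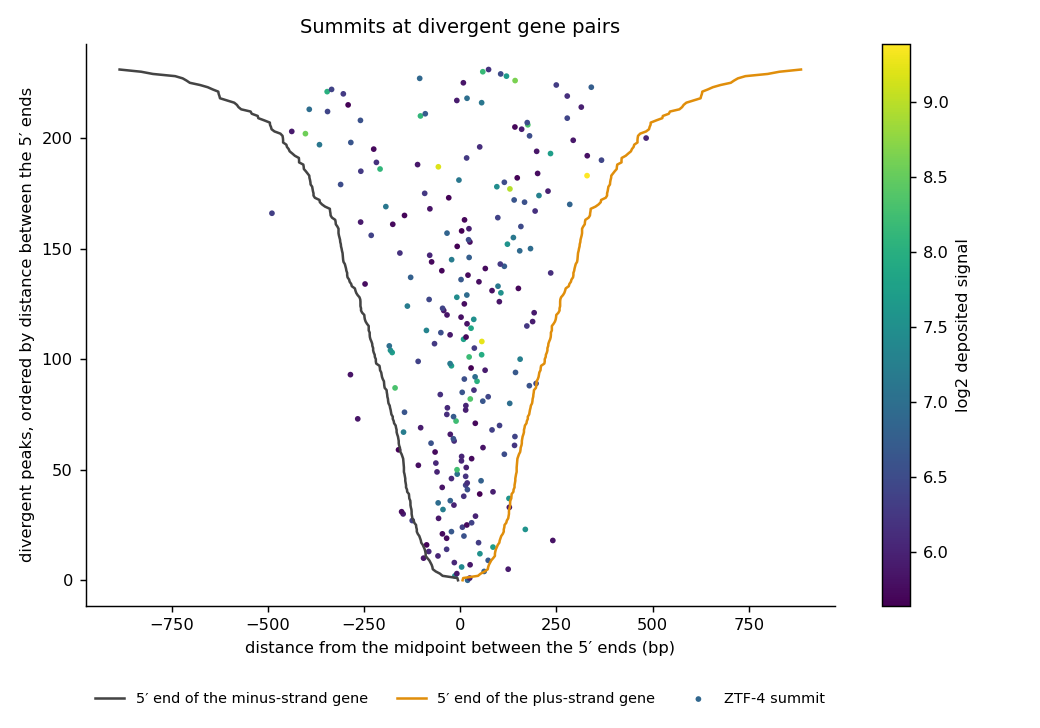
Position of the ZTF-4 summit (points, coloured by log2 signal) relative to the midpoint between the 5′ ends of each of the 232 divergent pairs, in bp, with the pairs ordered by the distance between the ends. The dark and orange lines are the 5′ ends of the minus-strand and plus-strand genes. The points fill the space between the lines, with a median of 73.0 bp from the midpoint and 14 points outside the lines.

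Within the space between genes up to 600 bp apart, summits gathered towards the middle. With the distance between the ends cut into 3 equal stretches, the central stretch held 109 of the 218 summits that lay between them (50%, 43.2% to 56.8%), with both bounds above its share of the length. By distance between the ends, the central stretch held 24 of 47 summits at up to 300 bp (51.1%), 49 of 85 above that and up to 600 bp (57.6%, 46.4% to 68.3%), 24 of 62 above 600 and up to 1000 bp (38.7%, 26.6% to 51.9%) and 12 of 24 beyond 1000 bp (50%). The interval for 600 to 1000 bp includes the central share of the length, and beyond 1000 bp the windows themselves keep the summit away from both ends, so these 2 groups do not show such a gathering. Up to 1000 bp, where the whole space lies in both windows, the central stretch held 97 of 194 (50%, 42.8% to 57.2%). The tasp-1/K01G5.10 summit was 63 bp from tasp-1 and 722 bp from K01G5.10. The summit sat close to the middle at drr-2/set-16, 162 bp and 184 bp from the genes, and at ska-3/rps-12, 138 bp and 155 bp. The plus-strand gene was the nearer one at 132 peaks (56.9%, 50.3% to 63.4%), and the distances to the genes differed by under 100 bp at 86 (37.1%), so for these the choice of a nearest gene rests on little.

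The 23 same-strand peaks fell into separate kinds of arrangement. At 14 of them the genes followed one another with 39 to 296 bp between the end of the first and the start of the second, a median of 105.5 bp. At 11 of the 14 the summit lay upstream of both genes. There the window of the second gene reached back over the whole of the first. The summit was inside the first gene, here named first, at C47E8.11/gasr-8, Y39B6A.34/Y39B6A.33 and ucr-11/spg-20. In the F32D8.13/sec-61.G pair (115.1 and 123.6 in the replicates) the summit was 210 bp upstream of sec-61.G, for a subunit of the protein-conducting channel of the endoplasmic reticulum, and 810 bp upstream of F32D8.13, whose start lay 114 bp beyond the end of sec-61.G. In the rps-28/Y41D4B.4 pair (112.8 and 104.7) the spacing was 112 bp, and in the rpb-11/W01G7.4 pair (81.9 and 109.0), whose first gene encodes a subunit of RNA polymerase II, it was 114 bp. Operons are not annotated in the gene models used, so whether these pairs are operons was not tested.

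The other 9 same-strand pairs had gene models that overlap. In 4 of them the shorter gene was under 100 bp, as in egl-30, for the Gq alpha subunit of G proteins, with C53H9.4, a gene of 93 bp, and in pqn-51 with K11D12.14, a gene of 51 bp. The egl-30/C53H9.4 peak had 124.7 and 118.9 in the replicates, and its summit was 51 bp upstream of egl-30. The pqn-51/K11D12.14 peak had 71.0 and 106.1. At unc-60/F53E2.2 both models start at the same base. The summit was upstream of both genes at 19 of the 23 peaks. Over all 23, its median position was 129 bp upstream of the first gene and 719 bp upstream of the second. All 23 had a match in both replicates.

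At the other 16 peaks the windows of 3 genes on both strands met. The strongest lay at the histone genes his-67 and his-68 with alg-5, an Argonaute gene, with 102.8 and 120.5 in the replicates. Histone genes occur in near-identical copies, so how reads were shared among the copies is uncertain. The peak at rab-18, for a small GTPase, kbp-4, a kinetochore gene, and par-2, a gene of embryonic polarity, had 88.5 and 120.3 (chrIII:1080687-1080829), with the summit 28 bp inside rab-18. Next came cux-7, C07H6.2 and lig-4, a DNA ligase gene (72.9 and 79.4, chrIII:7520671-7521020), then Y54F10AM.15, rbc-2 and ndua-8 (76.9 and 65.5, chrIII:2528635-2528984), and abcf-2, T27E9.2 and ant-1.1, the last a mitochondrial adenine nucleotide carrier (79.7 and 52.1, chrIII:13462938-13463287).

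Housekeeping genes were frequent at the shared-promoter peaks. Of 23 gene lists set up by symbol, 18 were of housekeeping functions and 5 were large families of environmental or tissue-specific genes, a division made after the values were seen. The 18 lists together made up 5.14% of the autosomal genes, 27.2% of the genes at shared-promoter peaks (23.5% to 31.1%) and 15.2% of the genes at single-promoter peaks (12.1% to 18.6%). The 5 families made up 11.7% of the autosomal genes, 1.98% of the genes at shared-promoter peaks (0.992% to 3.51%) and 2.79% of those at single-promoter peaks (1.54% to 4.64%). In all, 134 of the 271 peaks held a listed gene, 28 of them more than 1. Genes of cytosolic ribosomal proteins led, with 36 of 80 at a shared-promoter peak (45.0%, 33.8% to 56.5%) beside 3.22% of all autosomal genes, and 47 of 80 with any promoter peak beside 6.1%. Of the 47, 76.6% shared their peak, against 52.9% over all genes with a peak. The 36 genes lay at 33 peaks with a median signal of 109.0 (82.0 over all 271), of which 29 were divergent, 3 same-strand and 1 had 3 genes. Of the 33 peaks, 3 held 2 ribosomal protein genes each: rps-10/rpl-24.1 (67.6 and 40.1 in the replicates), rps-14/rpl-36 with ndab-2 (41.8 and 45.8) and rpl-39/rps-30 (33.0 and 23.1). The summit stood 200 to 400 bp upstream of 24 of the 36 genes (66.7%), within a full range of 27 to 745 bp. The same band held for 160 of the 558 gene positions over all shared-promoter peaks (28.7%), and it was not set in advance. The median position of the summit was 285.5 bp upstream of the ribosomal protein gene and 249 bp upstream of the partner. The ribosomal protein gene was the nearer one at 9 of the 27 divergent peaks with 1 such gene and the farther one at 18.

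Other lists of protein synthesis and turnover differed among themselves. Mitochondrial ribosomal protein genes had 6 of 70 at a shared-promoter peak (8.57%, 3.21% to 17.7%), aminoacyl-tRNA synthetase genes 3 of 31 (9.68%, 2.04% to 25.8%) and ubiquitin pathway genes 3 of 64 (4.69%, 0.977% to 13.1%), with intervals that include the 3.22% of all genes. The intervals of the next 3 lists lie above it. Chaperone genes were at 15 shared-promoter peaks (16 of 60 genes, 26.7%, 16.1% to 39.7%). Among them were cct-1 with mig-5, a Dishevelled relative (103.0 and 111.1 in the replicates, chrII:8185114-8185267), dnj-13 with F54D5.9 (107.1 and 102.4, chrII:11545416-11545551), and the small heat shock pair hsp-16.2/hsp-16.41 (18.4 and 33.6, chrV:1804846-1805195). Here the chaperone gene was the nearer one at 2 divergent peaks and the farther one at 11. Proteasome genes showed the other order, nearer at 6 and farther at 2, with 8 of 33 genes (24.2%, 11.1% to 42.3%) at a shared-promoter peak. These included pas-4 with rpb-3, a polymerase II gene (37.9 and 58.7), pbs-1 with K08D12.3 (46.0 and 41.0) and rpt-2 with aps-1 (39.9 and 23.1). For translation factors, 7 of 36 genes (19.4%, 8.19% to 36.0%) were at peaks of high median signal, 183.9. Those of elongation factors were eef-2 with clsp-1 (96.5 and 98.3), eef-1A.1 with rfc-4 (95.3 and 93.4), eef-1G with ctf-4 (87.8 and 99.0) and eef-1B.1 with aco-2, for mitochondrial aconitase (54.7 and 92.1). Summits at translation factor genes were close, a median of 65 bp upstream.

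Genes that act on RNA and chromatin were also present. Genes of RNA polymerases, Mediator and TFIID numbered 10 of 56 (17.9%, 8.91% to 30.4%) and splicing factors 9 of 43 (20.9%, 10% to 36.0%), with rsp-2/rsp-1, 2 genes of SR splicing proteins, at a single peak (57.8 and 65.3, chrII:11453022-11453371). Chromatin regulators numbered 10 of 58 (17.2%, 8.59% to 29.4%) and included htz-1, for the histone variant H2A.Z, with wapl-1 (72.5 and 85.4, chrIV:4445715-4446064). Histone genes numbered 9 of 68 (13.2%), at 5 peaks. Among them 3 were divergent pairs of histone genes alone, his-31/his-32 (52.1 and 44.8), his-4/his-3 (25.9 and 38.4) and his-61/his-62 (23.7 and 34.5). Cell cycle and replication genes numbered 8 of 57 (14%), and lin-53, a histone-binding protein, with nra-2 had 124.8 and 90.6. Membrane traffic genes numbered 13 of 78 (16.7%), with sec-61.B and trap-3, both of the endoplasmic reticulum translocon, at one peak (81.1 and 96.7).

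**Figure D5:**
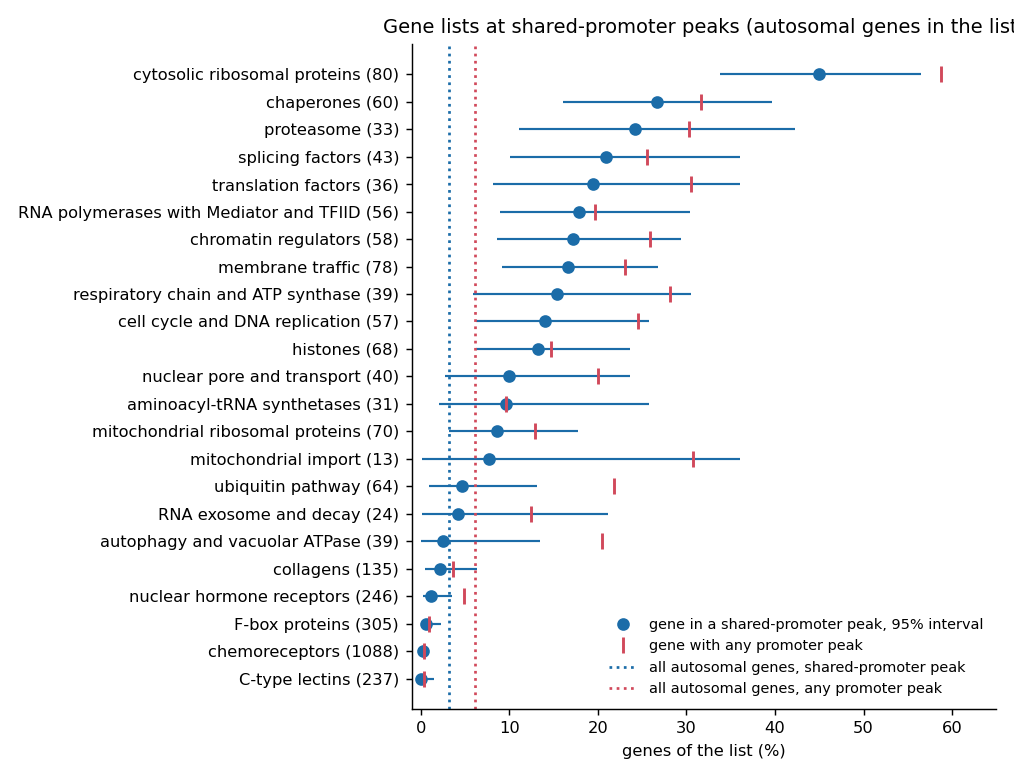
Share of the autosomal genes of each list that lay at a shared-promoter peak (blue points with exact 95% intervals) and that had any promoter peak (red marks), with dotted lines at the shares over all autosomal genes, 3.22% and 6.1%. Lists are ordered by the first share, with the number of genes in brackets. Cytosolic ribosomal proteins are at 45.0% and chaperones at 26.7%, while chemoreceptors, F-box proteins and C-type lectins are below the dotted line.

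Large families of environmental and tissue-specific genes were rare. Chemoreceptor genes, the largest list, had 3 of 1088 at a shared-promoter peak (0.276%, 0.0569% to 0.804%), among them sri-5 with rsr-1 (58.2 and 40.6 in the replicates) and srh-2 with icl-1 (23.8 and 35.7). F-box genes had 2 of 305 (0.656%) and C-type lectins 0 of 237, which allows a share of up to 1.27%. Nuclear hormone receptors had 3 of 246 (1.22%, 0.252% to 3.52%), of which nhr-68 with H12C20.7 was strong (124.7 and 86.7, chrV:11572959-11573119), and collagens 3 of 135 (2.22%, 0.461% to 6.36%), with col-117/col-3 at one peak (34.6 and 17.5). The intervals of the last 2 lists include the 3.22% of all genes. Autophagy and vacuolar ATPase genes, a housekeeping list, had 8 of 39 with any promoter peak but 1 at a shared one. The latter share (2.56%, 0.0649% to 13.5%) has an interval that includes 3.22%. Ubiquitin pathway genes had 14 of 64 with any promoter peak. The lists were chosen with results of these data known, and gene density and spacing differ between them, so the shares describe the lists.

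Most summits fell on sequence with no annotated gene. Of the 271, 223 (82.3%, 77.2% to 86.6%) were intergenic, 15 were in a 5′ UTR, 25 in an exon of a non-coding gene, 5 in an intron and 3 in a coding exon, and none was in a 3′ UTR. Single-promoter peaks were intergenic at 76.3% and in an intron at 8.74%. Outside protein-coding genes lay 247 of the 271 shared-promoter summits and 1.32 of the 2.21 Mb of shared sequence. The same held for 423 of the 515 single-promoter summits and 8.86 of the 16.2 Mb of sequence in 1 window. All 25 summits in a non-coding exon were at divergent pairs, as at ifet-1/rps-1, nhl-2/tag-340 and icd-1/vps-32.1. A non-coding gene lay within 200 bp of 49 summits (18.1%, 13.7% to 23.2%), against 16.5% of single-promoter summits. These 49 were all divergent, with 0 of 23 at same-strand neighbours and 0 of 16 with 3 genes, where the 0 of 23 allows a share of up to 13%. A tRNA gene was near 1 of them, at gcy-33/cpr-9.

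The 6-mers marked in the sequences were those most concentrated at the 1268 autosomal peaks that are not shared, compared with windows 300 bp to either side, so that the shared-promoter peaks had no part in the choice. In the 101 bases around the shared-promoter summits ACGCAG or its reverse complement was present at 18.1% of peaks (13.7% to 23.2%), GACGCA at 21.8% (17.0% to 27.1%), AGACGC at 13.3%, CGTCTC at 15.9% and CGCAGA at 14.8%. In the flanking windows of the same peaks the shares were between 1.11% and 4.06%, and around the point 149 bp upstream of all 17242 autosomal gene 5′ ends they were between 2.96% and 3.71%. Any of the 5 was present at 39.9% of the shared-promoter peaks, 39.2% of the single-promoter peaks and 35.1% of the peaks in no window, beside 8.49% and 8.86% in the flanks, 8.96% at all promoters and 9.73% between divergent pairs with no shared peak. The share was 39.2% at divergent and 52.2% at the 23 same-strand peaks.

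The 5 overlap one another and chain into the 10-letter string GAGACGCAGA, which reads TCTGCGTCTC on the other strand and which the F32D8.13/sec-61.G and drr-2/set-16 sequences show in capitals. The whole string was within 50 bp of 16 shared-promoter summits (5.90%, 3.41% to 9.41%), 57 single-promoter summits (11.1%, 8.49% to 14.1%) and 63 summits in no window (8.37%, 6.49% to 10.6%). It was in 0 of the 271 windows on either flank and at 1.04% of all promoters. The last 2 peak groups chose the 6-mers, which raises their shares, and the intervals of shared and single overlap. The 16 included R107.5/cls-2, T26A8.4/pdtf-1 and cup-14/ndub-8. Among the shared-promoter peaks any of the 6-mers was present at 25 of the 50 strongest (50%, 35.5% to 64.5%) and 15 of the 50 weakest (30.0%, 17.9% to 44.6%), and at 19 of the 33 with a ribosomal protein gene (57.6%, 39.2% to 74.5%) against 37.4% (31.2% to 43.9%) of the others. The matches are descriptions of letters and were not tested as binding sites.

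GC content was high at the summits. The 101 bases around a shared-promoter summit had a median of 47.5% GC (quartiles 42.6% and 52.5%), against 46.5% at single-promoter peaks, 35.6% and 36.6% in the flanks and 32.7% at all promoters. It was 47.5% at divergent and 44.6% at same-strand peaks, and 53.0% at the 50 strongest against 44.6% at the 50 weakest. GC content affects how libraries amplify, and its part in the signal was not tested.

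The autosomes held unequal numbers of shared-promoter peaks. Chromosome III had 69 and chromosome I 63, with 54 on V, 43 on IV and 42 on II, although III has 15.3% of the autosomal genes and V 29.0%. Per Mb of shared sequence the densities were 189.9 on III (147.7 to 240.3) and 159.6 on I (122.7 to 204.2), against 104.2 on IV, 96.5 on II and 89.6 on V (67.3 to 116.9). Single-promoter densities had III highest and V lowest as well, at 43.8 and 21.6 summits per Mb. Divergent pairs made up 55 of the 69 peaks on III and 40 of the 43 on IV.

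The window sets which peaks count as shared. Just inside its upstream edge the second gene was nasp-2 at 997 bp, rars-1 at 985 bp and ttc-4 at 978 bp upstream of their 5′ ends, with signals of 107.1, 51.8 and 84.5. Just outside it were peaks whose second gene would have been mars-1, tag-280 and tsp-12, at 1022, 1023 and 1024 bp, with signals of 87.2, 54.3 and 53.5. At the downstream edge the innermost were mogs-1, Y95B8A.6 and Y39B6A.34 at 152, 138 and 132 bp inside the gene, with signals of 80.9, 56.7 and 61.5, and the nearest beyond it were F40F11.3, B0491.6 and F42A10.5 at 222, 234 and 273 bp, with signals of 62.9, 52.3 and 60.3.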

How the data were processed

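ChIP-seq of eGFP-tagged ZTF-4 was measured in 2 biological replicates of whole L1 larvae, a single group. The authors deposited region lists on ce11 with a signal value per region. One holds the regions passing their IDR filter and is derived from both replicates. The longer lists per replicate, per the labels of the files, also hold background as input for IDR. The sources used here give no unit for this signal, aligner, peak caller or read depth. Lists on ce10 were not used.

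Summits were the list start plus the summit offset. Promoter windows came from protein-coding genes of Ensembl release 115 on WBcel235, the same assembly as ce11, and sequence from the RefSeq copy, in which 99.9% of 31805 annotated start codons read ATG. A replicate region matched a peak when the summits were within 100 bp. Intervals for shares are exact Clopper-Pearson and for densities exact Poisson. Intervals of ratios of densities come from the exact binomial. Those of the ratios to added densities are exact Poisson intervals of the shared count, divided by the sum taken as fixed. Peaks of 1 group are not replicates of a condition, so no p-value was computed. Calculations used Python 3.11.15, numpy 2.4.6, pandas 2.3.3 and scipy 1.17.1, and were tested on simulated data.

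The members and the gene lists were chosen with earlier results of these data known. The chemoreceptor list was narrowed to receptor families after genes of other kinds were found in it. One gene that the naming rule covers is not reported here. Peaks are named by rule: the 20 strongest, the 5 strongest of each class, up to 4 per gene list, those with 2 genes of a list, the 5 that differ most between replicates, those missing in a replicate, and 3 to each side of each window edge. Beyond that gene, some of the peaks that the rule gives per gene list are not printed. Other peaks and genes named were chosen after their values were seen. The alternatives tried were each replicate alone, the stronger 949 peaks, shorter and longer windows, every transcript 5′ end, non-coding genes, overlap of the region and other match distances.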

Additional observations from a re-analysis of the deposited data

How the results depend on the processing

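Of the 64 alternative values over 9 results, 36 stayed within the interval of the value reported and 28 moved beyond it. The limit was 1.5 times for the number of peaks. For the log2 signal difference it was the SD of 0.00806 between the replicates alone. Only the log2 signal difference could change sign, and it did so in none of its alternatives. The other results are counts, shares and ratios, which cannot be negative. Each replicate alone, by its strongest 1898 regions, gave 241 to 274 shared-promoter peaks a log2 signal difference of 0.12 to 0.14, and a shared peak at 8.15% to 9.25% of divergent pairs. No paired analysis was possible because there is 1 group.

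With a window of 500 bp upstream to 100 bp downstream, 28.8% of promoter peaks were shared, 95.1% of these were divergent, the log2 signal difference was 0.079, the density ratio 5.34, and 10.5% of divergent pairs held a shared peak. With 2000 bp upstream to 500 bp downstream there were 444 shared-promoter peaks (44.4% of promoter peaks), 58.8% divergent, with a log2 difference of 0.10, a density ratio of 2.65 and 89.3% of divergent summits between the 5′ ends. With non-coding RNA genes included there were 449 (46.1%), 51% divergent, with a log2 difference of 0.17, 7.63% of same-strand pairs with a shared peak and 88.2% of divergent summits between the ends. Every transcript 5′ end gave a log2 difference of 0.15. Any overlap of the peak region with the windows gave 79.8% divergent. The strongest 949 of the IDR peaks held 161 shared-promoter peaks, at 5.47% of divergent and 2.96% of same-strand pairs, with 97.1% of divergent summits between the ends. A match within 50 bp was found in both replicates for 88.2% of the shared-promoter peaks and within 200 bp for 99.6%. Chosen after seeing the data, the density ratio was 3.92 outside protein-coding genes, 3.17 within bins of distance, and 3.21 with both. Depth limits none of these in a way that can be stated, since it is unknown.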
